A study of Mus musculus with 9 samples.

Results

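The transcripts described here are those of 45 genes that act in G2 and mitosis, from the cyclin and Cdk switch that starts mitosis to the proteins that cut the daughter cells apart. The genes were listed by symbol. For each one the probe set that names a single gene and has the highest mean over the 9 arrays was read, which gave 43 measured genes among 19661 genes tested. Ccnb1 and Cks2 were not analysed here.

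The arrays measured total RNA of cultured mouse myoblasts, the muscle precursor cells, of skeletal muscle origin and Balb/c background. The study compared 3 groups of 3 arrays each: myoblasts overexpressing Pax7, myoblasts overexpressing Pax3, and myoblasts with the empty vector, labelled CTAP Control. Pax7 and Pax3 are paired-box transcription factors of muscle progenitors. All groups grew in Ham's F10 medium with 20% fetal bovine serum and 4 ng/ml basic fibroblast growth factor. The labels name neither the vector's promoter nor whether a group was 1 clone or a pool. They also leave unsaid whether replicate arrays are separate cultures, so the spread that the p-values use may be technical. Values are log2 intensities normalised by the authors, so a difference of 1 is a 2-fold change.

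Cdk1 bound to cyclin A or cyclin B drives cells into mitosis once Cdc25 phosphatases have removed its inhibitory phosphates. Polo-like, Aurora and NIMA-related kinases then build the spindle, kinetochores tie chromosomes to its microtubules, and the checkpoint holds the anaphase-promoting complex until all chromosomes are attached. Most of these genes are transcribed in G2 and M through promoter elements called CHR and CCAAT boxes, bound by MuvB complexes with B-Myb and FoxM1 and by NF-Y. Myoblasts leave the cell cycle and shut these genes down when they differentiate into muscle fibres.

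Promoter windows of 300 bases, 250 before and 50 after each annotated start, were read for 39 of the 45 listed genes, 37 of them measured, from RefSeq on build GRCm38.p6. The 120 bases before the first annotated start are printed for 7 genes on which the results turn: 2 that were higher under both factors, 4 that were lower under both, and Nuf2, which was lower under Pax7. Capitals mark TTTGAA (the CHR core) and CCAAT, or their reverse complements TTCAAA and ATTGG.
Cdc25b, chr2:131186828-131186947, plus strand: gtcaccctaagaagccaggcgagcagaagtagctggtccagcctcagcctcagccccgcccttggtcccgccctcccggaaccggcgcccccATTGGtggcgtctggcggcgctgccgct
Ect2, chr3:27153879-27153998, minus strand: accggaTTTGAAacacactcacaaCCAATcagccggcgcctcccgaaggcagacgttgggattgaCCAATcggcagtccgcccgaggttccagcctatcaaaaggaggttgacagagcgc
Mki67, chr7:135716380-135716499, minus strand: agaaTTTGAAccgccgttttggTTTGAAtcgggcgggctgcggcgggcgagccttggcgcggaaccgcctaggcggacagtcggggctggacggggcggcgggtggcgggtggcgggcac
Kif11, chr19:37376262-37376381, plus strand: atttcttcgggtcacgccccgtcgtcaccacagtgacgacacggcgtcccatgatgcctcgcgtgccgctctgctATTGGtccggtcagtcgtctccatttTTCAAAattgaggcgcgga
Cdc20, chr4:118437344-118437463, minus strand: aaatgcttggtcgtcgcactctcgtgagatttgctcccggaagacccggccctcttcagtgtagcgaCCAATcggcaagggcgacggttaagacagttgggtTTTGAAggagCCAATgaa
Nek2, chr1:191821353-191821472, plus strand: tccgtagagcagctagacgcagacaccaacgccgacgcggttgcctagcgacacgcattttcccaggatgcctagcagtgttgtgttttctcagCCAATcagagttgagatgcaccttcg
Nuf2, chr1:169531465-169531584, minus strand: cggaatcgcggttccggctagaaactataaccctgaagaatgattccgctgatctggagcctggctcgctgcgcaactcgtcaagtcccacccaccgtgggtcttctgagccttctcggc
In these stretches Ect2, Kif11 and Cdc20 hold both elements, Mki67 holds TTTGAA at 2 places, Cdc25b and Nek2 hold a CCAAT box alone, and Nuf2 holds neither. Over the full windows, searched on both strands, TTTGAA occurred in 25 of the 39 listed genes (64.1%), against 20.2% of the 27025 symbols with a promoter entry. CCAAT occurred in 27 of 39 (69.2%), against 41.1% of all symbols, and both elements in 21 (53.8%), against 8.97%. The variant TTTAAA was found in 10 of 39 (25.6%), against 14.9%. No occurrences of different motifs overlapped in these genes. Among measured genes with a window, TTTGAA was present in 10 of the 13 that were lower in Pax7 than in control arrays, 13 of the 21 that did not pass the test and 2 of the 3 that were higher. The element therefore stood in genes of every outcome, and a match of letters is a description of the window, not a shown binding site.

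The targeted genes followed the labels. The Pax7 transcript averaged 12.28 in Pax7 arrays, 8.18 in Pax3 arrays and 10.51 in control arrays, and the Pax3 transcript averaged 6.82, 11.05 and 5.83 in the same order (n = 3 each). Pax7 was thus 2.33 log2 units lower in Pax3 than in control arrays. Array correlations over all probe sets were 0.997 to 0.999 within groups and 0.971 to 0.995 between groups. Of 8 myoblast markers, 7 were expressed in every group and Chodl was near the bottom of the scale in all. Myod1 averaged 12.18 in Pax7, 12.50 in Pax3 and 12.62 in control arrays. Of the 8, 5 were lower and 2 higher under Pax7, with a median of -0.54, and 4 were lower and 2 higher under Pax3, with a median of -0.29 (limma). Des, a muscle filament protein, fell by 1.33 under Pax7 and by 0.52 under Pax3, whereas Myf5, a myogenic transcription factor, rose by 2.02 and by 1.97. All 9 measured markers of differentiated muscle were lower in Pax7 and in Pax3 than in control arrays, with median differences of -2.40 and -1.32, and their summed level was 12.15 to 12.39 in Pax7, 13.25 to 13.28 in Pax3 and 14.32 to 14.46 in control arrays. The control arrays also carried Y-linked transcripts that were near the bottom of the scale in the others: Eif2s3y was 3.08 in Pax7, 3.12 in Pax3 and 8.78 in control arrays, whereas Xist was 11.72, 11.96 and 4.77 in that order. The control cells thus differed from both others in sex-linked transcripts as well as in vector, and for every difference from control below the factor and the origin of the cells cannot be told apart. Of 7 macrophage and leukocyte markers Cd68 was higher in both Pax groups than in control arrays, by 2.04 for Pax7 and 1.36 for Pax3, and Cd14 fell by 0.20 under Pax7. The list's summed level, which Cd68 led, was 9.74 to 9.81 in Pax7, 9.27 to 9.30 in Pax3 and 8.41 to 8.60 in control arrays. Of 6 epithelial markers 4 were higher in each Pax group, while Cdh1 and Cldn4 passed in neither. The summed level of the 6 was 9.84 to 9.96 in Pax7, 9.09 to 9.15 in Pax3 and 8.84 to 8.98 in control arrays. Krt18, the highest of them in both Pax groups, averaged 8.87 in Pax7, 7.08 in Pax3 and 6.42 in control arrays. The lowest genes of the macrophage and leukocyte, fibroblast and endothelial lists were Adgre1, Lum and Kdr, which averaged 3.25 to 4.71 over the groups. The highest genes of the same lists were Cd68 at 7.36 to 9.40, Col1a1 at 7.21 to 7.26 and Cldn5 at 6.05 to 6.15. Against control arrays, 2 of 7 fibroblast markers were higher under Pax7 and 1 under Pax3, with Pdgfra up by 0.58 and 0.42. Of 6 endothelial markers 2 were higher under Pax7 and 1 under Pax3, with Tek up by 0.74 and 0.38. Of 5 adipocyte markers 2 were higher under Pax7 and 0 under Pax3. The summed levels of these 3 lists in Pax7, Pax3 and control arrays were 8.58 to 8.71, 8.51 to 8.75 and 8.48 to 8.52 for fibroblast markers, 8.32 to 8.38, 8.19 to 8.31 and 8.14 to 8.20 for endothelial markers, and 7.75 to 7.83, 7.55 to 7.82 and 7.53 to 7.62 for adipocyte markers. The marker counts stand beside the shares of all genes. Against control, 21.6% of all genes were higher and 21.5% lower under Pax7, and 19.8% and 19.7% under Pax3. The part of these markers in the results below was not tested.

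In Pax7 myoblasts 19 of the 43 genes differed from control, 3 higher and 16 lower, and in Pax3 myoblasts 12 did, 5 higher and 7 lower (limma on all 9 arrays, Benjamini-Hochberg adjusted over all genes, adjusted p under 0.05). Cdc25b stood apart, at 1.68 times its control level under Pax7 and 1.75 times under Pax3. The other differences from control that passed lay between 1.08-fold, for Kif20a under Pax7, and 1.37-fold, for Mki67 under Pax7. The counts must be read against all genes, of which 43.2% passed between Pax7 and control arrays and 39.6% between Pax3 and control arrays. The mitotic genes passed in 44.2% and 27.9% of cases, the first close to the share of all genes and the second below it. By direction, 21.6% of all genes were higher and 21.5% lower in Pax7 than in control arrays, against 6.98% and 37.2% of the mitotic genes. In Pax3 arrays 19.8% of all genes were higher and 19.7% lower, against 11.6% and 16.3% of the mitotic genes.

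Bright genes passed more often than dim ones, and all 43 mitotic genes lay above the median mean intensity of all genes. Within the brighter 50% of genes, tested on their own, 69.6% of genes passed between Pax7 and control arrays and 66.4% between Pax3 and control arrays, against 53.5% (23) and 44.2% (19) of the mitotic genes. By direction these mitotic genes were 4 higher and 19 lower for Pax7, and 9 higher and 10 lower for Pax3. The same split over all brighter genes was not computed, so the shares by direction above are not matched for intensity. A test of whether a change exceeds 1.2-fold (limma's treat, adjusted p under 0.05) called 19.4% of all genes between Pax7 and control arrays and 16.6% between Pax3 and control arrays. It called 3 mitotic genes for Pax7 (Cdc25b, Kif11 and Mki67) and 1 for Pax3 (Cdc25b). For 42 of the 43 genes the 95% confidence interval of the difference lay within 1.5-fold either way in each comparison with control, the exception being Cdc25b in both. The same held for 81.2% of all genes for Pax7 and 83.9% for Pax3, and for 72.3% and 76% within the brighter 50%. The median difference of the 43 genes was -0.09 for Pax7, with 30 genes below 0, and 0.03 for Pax3, with 17 below 0. Over all genes the medians were 0.03 and 0.02, with 42.4% and 45.2% of genes below 0, against 69.8% and 39.5% of the 43. The arrays are of bulk RNA, in which fewer cells in G2 or mitosis and less RNA per such cell cannot be told apart.

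**Figure D1:**
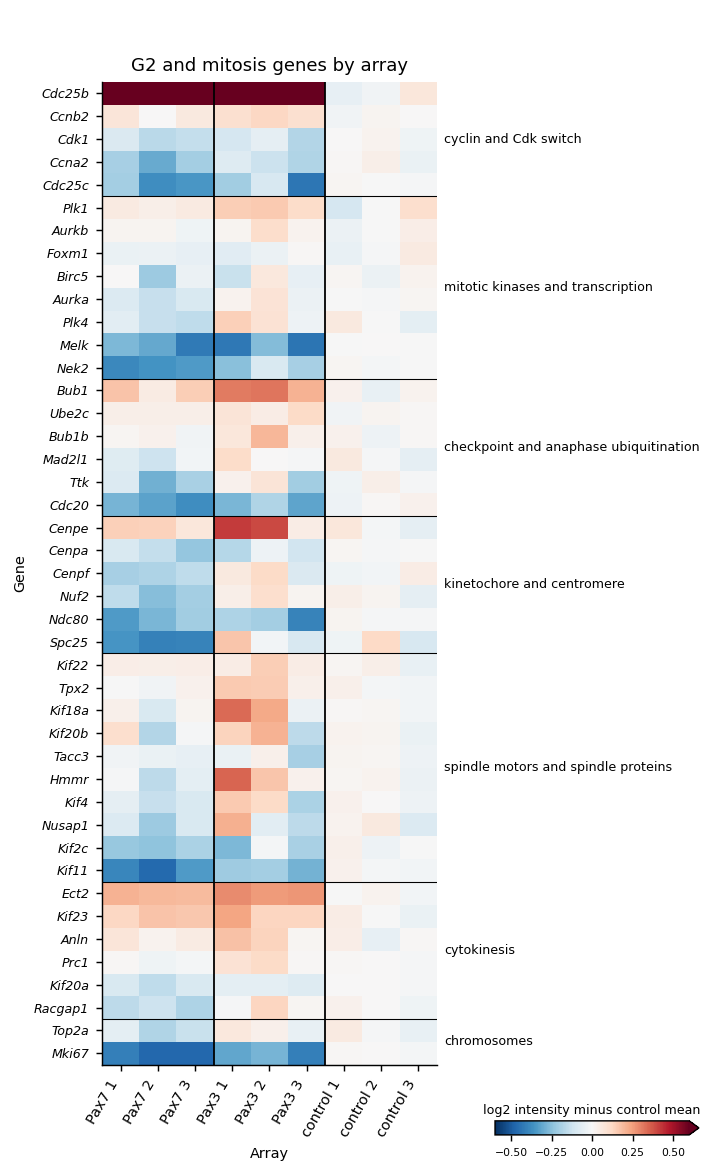
Heat map of the 43 measured G2 and mitosis genes (rows, grouped by role) on the 9 arrays (columns, Pax7, Pax3 and control). Colour is log2 intensity minus the gene's control mean. Cdc25b, in the top row, exceeds the colour scale in all 6 Pax arrays, while Mki67, Kif11, Nek2, Melk and Cdc20 are blue in them.

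The switch into mitosis showed opposite directions among its parts. Cdc25b, a phosphatase that activates cyclin-Cdk complexes at mitotic entry, gave log2 intensities of 10.15, 10.09 and 10.07 in Pax7 arrays and 10.11, 10.19 and 10.17 in Pax3 arrays, against 9.30, 9.33 and 9.42 in control arrays. All 6 Pax arrays were above all control arrays, by 0.75 ± 0.047 (SE; adjusted p = 1.73e-07) for Pax7 and 0.81 ± 0.047 (adjusted p = 1.35e-07) for Pax3 in limma. Its relative Cdc25c, which acts on the same inhibitory phosphates of Cdk1, was lower: 7.64, 7.48 and 7.50 in Pax7 arrays and 7.64, 7.76 and 7.42 in Pax3 arrays, against 7.86, 7.85 and 7.84 in control arrays. Cdc25c fell by 0.31 under Pax7 (adjusted p = 0.00785) and by 0.25 under Pax3 (adjusted p = 0.0289, and up to 0.0769 when 1 array was left out). Ccna2, which encodes cyclin A2, measured 11.40, 11.29 and 11.39 in Pax7 arrays and 11.52, 11.47 and 11.41 in Pax3 arrays, against 11.60, 11.63 and 11.55 in control arrays. It fell by 0.24 under Pax7 (adjusted p = 0.00181), and its difference of -0.13 under Pax3 missed the threshold (adjusted p = 0.053). Cdk1 itself was 0.13 lower under Pax7 (adjusted p = 0.0361, and up to 0.118 with 1 array left out) and differed by -0.11 under Pax3 (adjusted p = 0.0812). Ccnb2, the cyclin B2 gene, differed by 0.04 and 0.11 without passing, with intervals of -0.04 to 0.13 for Pax7 and 0.02 to 0.19 for Pax3. The 5 genes of the switch thus gave 1 higher and 3 lower under Pax7, and 1 of each under Pax3. Of all genes 21.6% were higher and 21.5% lower under Pax7, and 19.8% and 19.7% under Pax3.

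Among 8 mitotic kinases, their partners and FoxM1, Melk and Nek2 were lower under both factors and the other 6 passed in neither comparison with control. Melk, a kinase that is abundant in dividing cells, gave 8.69, 8.66 and 8.54 in Pax7 arrays and 8.53, 8.70 and 8.52 in Pax3 arrays, against 8.96 in each of the 3 control arrays. No Pax array reached the control level, and Melk fell by 0.33 ± 0.058 (SE; limma adjusted p = 0.000691) under Pax7 and by 0.38 ± 0.058 (adjusted p = 0.000318) under Pax3. Nek2, the kinase that separates the centrosomes, gave 8.95, 8.97 and 8.99 in Pax7 arrays and 9.08, 9.24 and 9.13 in Pax3 arrays, against 9.34, 9.32 and 9.33 in control arrays. The 3 groups did not overlap for Nek2, which fell by 0.36 under Pax7 (adjusted p = 7.07e-05) and by 0.18 under Pax3 (adjusted p = 0.00941). Foxm1, the transcription factor of many G2 and M genes, gave 9.76, 9.77 and 9.75 in Pax7 arrays and 9.73, 9.77 and 9.81 in Pax3 arrays, against 9.75, 9.79 and 9.85 in control arrays. These values overlapped, and the interval of its difference was -0.14 to 0.05 for Pax7 and -0.12 to 0.06 for Pax3. Plk1, which drives many steps of mitosis, had intervals of -0.07 to 0.16 for Pax7 and 0.02 to 0.25 for Pax3. Aurkb and its partner Birc5 (survivin), both of the chromosomal passenger complex, had intervals of -0.09 to 0.10 and -0.23 to 0.06 for Pax7, and -0.05 to 0.14 and -0.19 to 0.11 for Pax3. Those of the centrosomal kinase Aurka were -0.20 to -0.01 for Pax7 and -0.07 to 0.12 for Pax3. Plk4, which controls centriole duplication, differed from control by -0.12 under Pax7 (adjusted p = 0.11) and 0.07 under Pax3 (adjusted p = 0.408).

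Of 6 genes of the checkpoint and of anaphase ubiquitination, Cdc20 was lower under both factors and Bub1 was higher under Pax3. Cdc20, the activator of the anaphase-promoting complex, measured 10.32, 10.28 and 10.22 in Pax7 arrays and 10.33, 10.42 and 10.28 in Pax3 arrays, against 10.57, 10.61 and 10.62 in control arrays. The Pax arrays all lay below the control arrays, by 0.32 (limma adjusted p = 0.000196) for Pax7 and 0.26 (adjusted p = 0.00118) for Pax3 on the log2 scale. Bub1, a checkpoint kinase of the kinetochore, measured 10.52, 10.39 and 10.49 in Pax7 arrays and 10.65, 10.67 and 10.55 in Pax3 arrays, against 10.37, 10.30 and 10.36 in control arrays. It rose by 0.28 under Pax3 (adjusted p = 9e-04), and its difference of 0.12 under Pax7 did not pass (adjusted p = 0.0718). The other checkpoint genes, Bub1b (0.01 and 0.10), Mad2l1 (-0.07 and 0.04) and the kinase Ttk (-0.19 and -0.03), and Ube2c (0.03 and 0.08), the ubiquitin-conjugating enzyme of the complex, passed for neither Pax7 nor Pax3; the values are the log2 differences for Pax7 and then for Pax3.

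The kinetochore and centromere genes were the role with the largest share of lower genes under Pax7, where 5 of 6 were lower. Under Pax3 1 of 6 was lower and 1 higher. Of all genes 21.5% were lower under Pax7, and 19.7% were lower and 19.8% higher under Pax3. The roles were chosen after the values were seen, so the rank of this role was not tested. The NDC80 complex, which binds the microtubule at the outer kinetochore, has 4 subunits, of which Ndc80, Nuf2 and Spc25 are among the listed genes and Spc24 belongs to a related list. Spc25 gave 8.46, 8.41 and 8.42 in Pax7 arrays and 8.98, 8.80 and 8.72 in Pax3 arrays, against 8.79, 8.93 and 8.72 in control arrays. The Pax7 arrays lay below all others and the Pax3 and control arrays overlapped; Spc25 fell by 0.39 ± 0.072 under Pax7 (SE; limma adjusted p = 0.00103) and differed by 0.02 under Pax3 (interval -0.14 to 0.18). Nuf2 showed the same order, with 9.55, 9.44 and 9.50 in Pax7 arrays and 9.73, 9.80 and 9.71 in Pax3 arrays, against 9.73, 9.71 and 9.64 in control arrays. It fell by 0.20 under Pax7 (adjusted p = 0.00421) and differed by 0.05 under Pax3 (interval -0.05 to 0.15). Ndc80 was lower under both factors, at 8.08, 8.15 and 8.21 in Pax7 arrays and 8.24, 8.22 and 8.02 in Pax3 arrays, against 8.44, 8.41 and 8.42 in control arrays. It fell by 0.27 under Pax7 (adjusted p = 0.00348) and by 0.26 under Pax3 (adjusted p = 0.00485). Spc24 differed most of the 4, at 7.56, 7.55 and 7.43 in Pax7 arrays and 8.04, 8.20 and 8.18 in Pax3 arrays, against 8.53, 8.56 and 8.56 in control arrays. Its groups did not overlap, and it fell by 1.04 ± 0.054 under Pax7 (SE; adjusted p = 3.96e-08) and by 0.41 ± 0.054 under Pax3 (adjusted p = 9.66e-05). All 4 subunits were thus lower under Pax7, and Ndc80 and Spc24 were lower under Pax3.

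Cenpe, a kinesin of the kinetochore, rose by 0.29 under Pax3 (limma adjusted p = 0.0229), where its arrays gave 9.38, 9.36 and 9.00; the Pax7 arrays gave 9.10, 9.10 and 9.03 and the control arrays 9.03, 8.95 and 8.91. The Pax3 value of 9.00 lay within the control range, and the call was lost when any of 4 arrays was left out, with adjusted p up to 0.0977. Cenpf, a kinetochore protein of G2 and mitosis, fell by 0.18 under Pax7 (adjusted p = 0.0196, up to 0.0674 with 1 array left out). Cenpa, the histone H3 variant of centromeres, fell by 0.16 (adjusted p = 0.0283, up to 0.119). Under Pax3 they differed by 0.03 and -0.11 without passing.

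**Figure D2:**
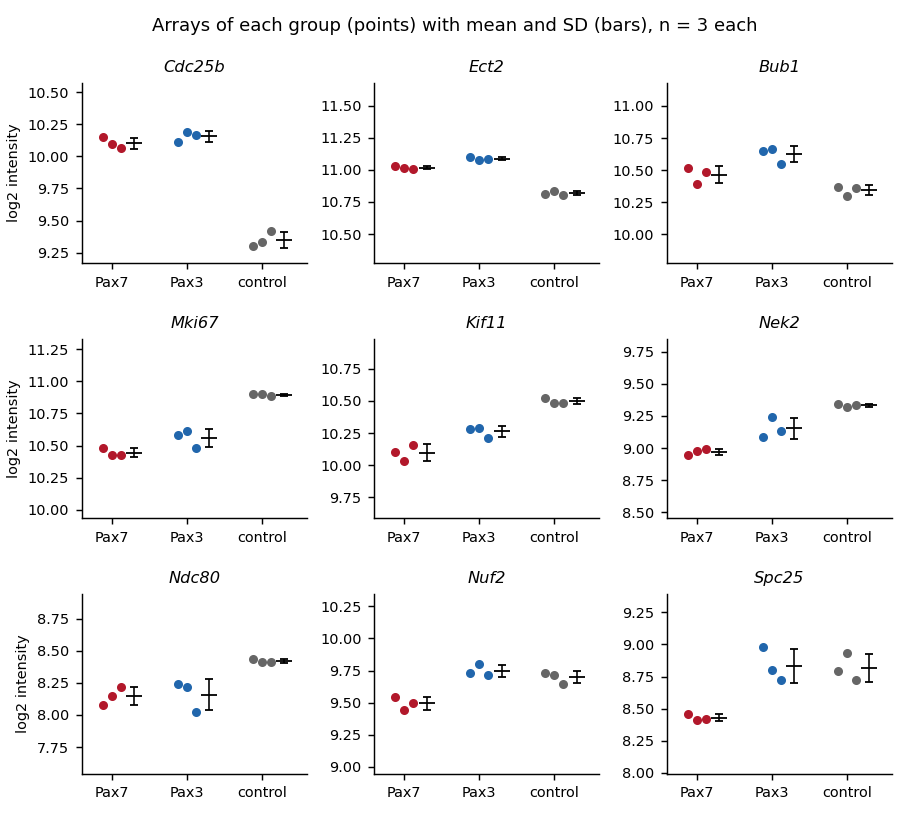
Log2 intensity on each array (points), with group mean and SD (bars, n = 3 each), for 9 selected G2 and mitosis genes in Pax7, Pax3 and control arrays. Cdc25b and Ect2 lie higher in both Pax groups, Mki67 lies lower in both, and Spc25 and Nuf2 lie lower in Pax7 than in both other groups.

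Of 10 spindle motors and spindle proteins, Kif11 was lower under both factors, Kif2c was lower under Pax7, and 8 passed in neither comparison with control. Kif11, the kinesin that pushes the spindle poles apart, measured 10.10, 10.03 and 10.16 in Pax7 arrays and 10.29, 10.29 and 10.21 in Pax3 arrays, against 10.52, 10.48 and 10.48 in control arrays. The 3 groups were separate and in that order; Kif11 fell by 0.40 ± 0.046 under Pax7 (SE; limma adjusted p = 2.89e-05) and by 0.23 ± 0.046 under Pax3 (adjusted p = 0.00176). Kif2c, a kinesin that takes microtubules apart at the centromere, fell by 0.22 under Pax7 (adjusted p = 0.0124) and differed by -0.16 under Pax3 (adjusted p = 0.0623). Tpx2, which activates Aurora A on the spindle, differed by 0.00 under Pax7 (interval -0.10 to 0.10) and 0.11 under Pax3 (interval 0.01 to 0.22). The chromosome-arm kinesins Kif4 and Kif22 differed by -0.09 and 0.04 under Pax7 and 0.03 and 0.08 under Pax3. Kif18a, which limits chromosome movement at the metaphase plate, differed by -0.02 and 0.18, and Kif20b by -0.03 and 0.06, for Pax7 and Pax3. The spindle proteins Nusap1 (-0.13 and 0.00), Hmmr (-0.07 and 0.18) and Tacc3 (-0.04 and -0.07) likewise did not pass against control.

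The 6 cytokinesis genes were the role in which both factors gave 2 higher genes. Of all genes 21.6% were higher under Pax7 and 19.8% under Pax3, and the standing of this role was not tested. Ect2, the exchange factor that activates RhoA at the cell's equator, gave 11.03, 11.01 and 11.01 in Pax7 arrays and 11.10, 11.08 and 11.08 in Pax3 arrays, against 10.82, 10.84 and 10.80 in control arrays. The groups did not overlap, and Ect2 rose by 0.20 under Pax7 (limma adjusted p = 0.0011) and by 0.27 under Pax3 (adjusted p = 0.000133). Kif23, the kinesin of the centralspindlin complex that recruits Ect2, gave 10.71, 10.75 and 10.74 in Pax7 arrays and 10.82, 10.71 and 10.71 in Pax3 arrays, against 10.62, 10.58 and 10.54 in control arrays. It rose by 0.15 under Pax7 (adjusted p = 0.0179, up to 0.0618 with 1 array left out) and by 0.16 under Pax3 (adjusted p = 0.0133, up to 0.0511). Its partner in centralspindlin, Racgap1, did not follow it: it fell by 0.15 under Pax7 (adjusted p = 0.0194, up to 0.0711 with 1 array left out) and differed by 0.05 under Pax3 (adjusted p = 0.513). Kif20a, a kinesin that carries the passenger complex to the midzone, fell by 0.11 under Pax7 (adjusted p = 0.0332, up to 0.123). Prc1, which bundles midzone microtubules, and Anln, a scaffold of the contractile ring, passed in neither comparison; their differences were -0.01 and 0.05 for Pax7 and 0.07 and 0.11 for Pax3.

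Mki67, whose product Ki-67 coats mitotic chromosomes and is the usual marker of cycling cells, measured 10.48, 10.43 and 10.42 in Pax7 arrays and 10.58, 10.61 and 10.48 in Pax3 arrays, against 10.90, 10.90 and 10.88 in control arrays. All Pax arrays were below all control arrays; Mki67 fell by 0.45 ± 0.045 under Pax7 (SE; limma adjusted p = 9.26e-06) and by 0.33 ± 0.045 under Pax3 (adjusted p = 0.00012). Top2a, the topoisomerase that untangles sister chromatids, gave 10.59, 10.47 and 10.52 in Pax7 arrays and 10.71, 10.68 and 10.60 in Pax3 arrays, against 10.70, 10.64 and 10.60 in control arrays. The Pax7 arrays lay just below the control arrays and the Pax3 arrays overlapped them, and its differences of -0.12 (adjusted p = 0.067) and 0.02 (adjusted p = 0.842) did not pass. A second, dim probe set of Top2a averaged 3.63 and passed in no comparison.

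**Figure D3:**
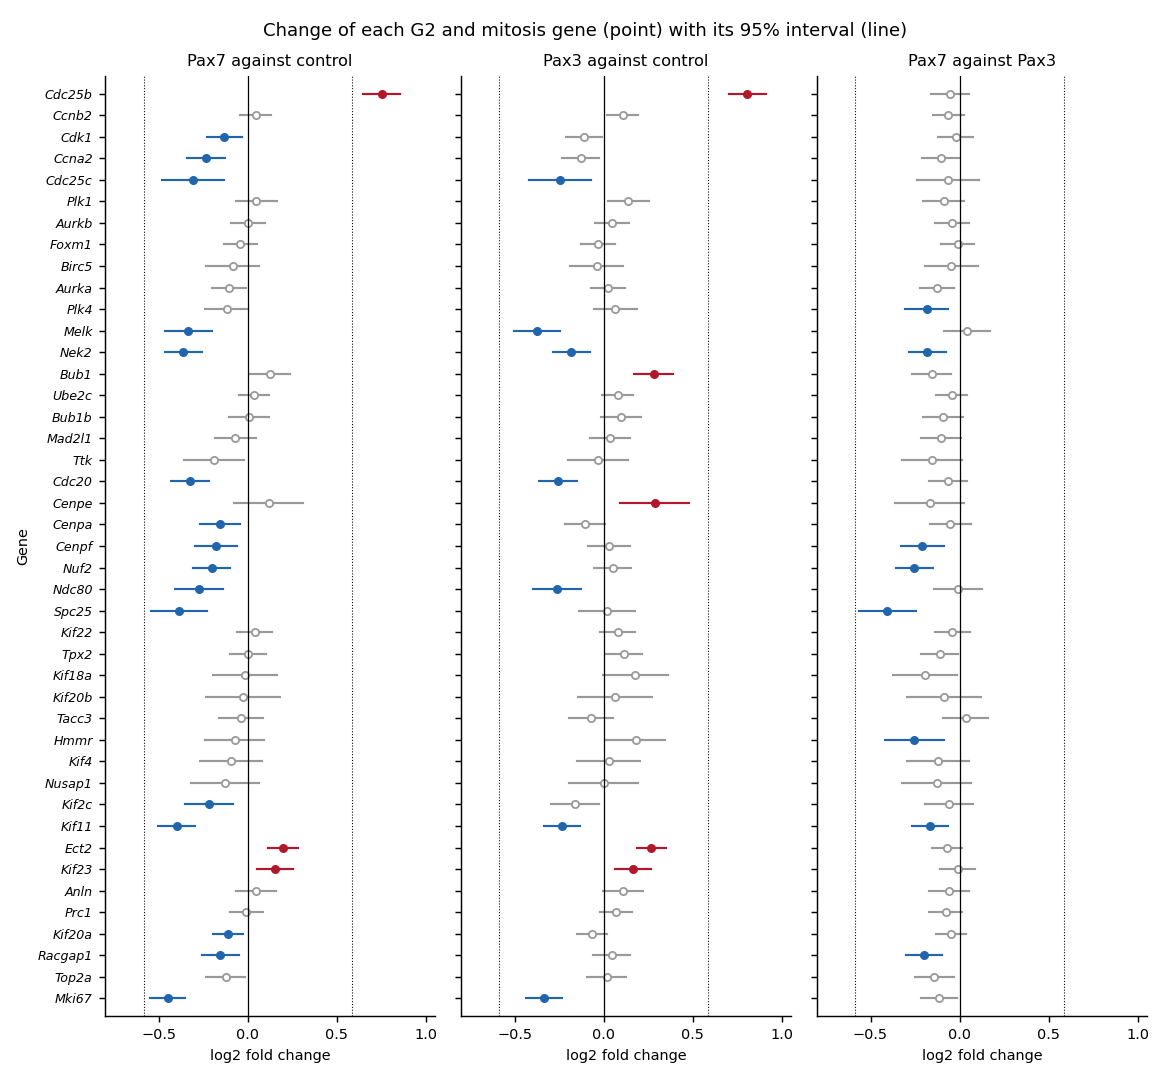
Log2 differences of the 43 genes with 95% confidence intervals, for Pax7 against control, Pax3 against control and Pax7 against Pax3, with genes in rows by role. Filled points passed the test, red higher and blue lower, and dotted lines mark 1.5-fold either way. Cdc25b lies far right of 0 in both comparisons with control, and 41 of the 43 points lie left of 0 in Pax7 against Pax3.

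Pax7 arrays were next set against Pax3 arrays, in which Xist was likewise high and the Y-linked transcripts were near the bottom of the scale. Xist still differed by -0.24 between Pax7 and Pax3 arrays (limma adjusted p = 0.0262), and a shared origin of these cells was not tested. Of the 43 genes 8 were lower in Pax7 than in Pax3 arrays and 0 were higher (limma, adjusted p under 0.05). At an unadjusted p under 0.05, for which the share of all genes was not computed, 15 were lower and 0 higher. The 8 that passed after adjustment were Spc25, Nuf2, Hmmr, Cenpf, Racgap1, Plk4, Nek2 and Kif11. Of all genes 16.9% passed this comparison, 8.33% higher and 8.54% lower, so the 18.6% of mitotic genes that passed was close to the share of the transcriptome while their direction was one-sided. The median difference was -0.09 over the 43 genes and 0.01 over all genes, and 41 of the 43 were below 0, against 47.3% of all genes. Spc25 differed by -0.40 ± 0.072 (SE; adjusted p = 0.00249) and Nuf2 by -0.25 ± 0.047 (adjusted p = 0.00319), and both calls held with each array left out in turn. Spc24, of the same complex, was lower by 0.62 on the log2 scale in Pax7 than in Pax3 arrays (adjusted p = 1.66e-05). Ndc80, the fourth subunit, differed by -0.01 (interval -0.15 to 0.12). Hmmr, a spindle protein that gave 9.14, 8.99 and 9.09 in Pax7 arrays and 9.50, 9.31 and 9.17 in Pax3 arrays, differed by -0.25 (adjusted p = 0.0401). It lost the call with 8 of the 9 arrays left out in turn, with adjusted p up to 0.155.

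The other 5 were lower by 0.16 to 0.21 on the log2 scale, and each lost its call in 1 to 7 of the runs that left out 1 array. Melk and Tacc3 were the 2 genes above 0, at 0.04 and 0.03. In the brighter 50% of genes, tested on their own, 11 of the 43 (25.6%) passed, against 32.6% of all genes in that set. The test against 1.2-fold called 0 of the 43 in either direction (at an unadjusted p under 0.05, 1 lower and 0 higher), against 3.99% of all genes. All 43 intervals lay within 1.5-fold either way, as did those of 94.9% of all genes and 93.2% of the brighter 50%. Differentiated-muscle markers were also lower in Pax7 than in Pax3 arrays, all 9 of them, with a median of -1.05, and the part of this in the result was not tested.

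Single arrays moved some of these counts. Pax3 replicate 3 was the lowest Pax3 array for 31 of the 43 genes (72.1%), against 35.9% of all genes. Pax7 replicate 2 and control replicate 3 were each the lowest of their group for 25 genes (58.1%), against 31.7% and 31.3% of all genes. The median of Pax3 replicate 3 over the 43 genes stood -0.04 from the control mean, against 0.06 and 0.08 for the other Pax3 arrays. The Pax7 arrays stood at -0.06, -0.14 and -0.09. Without Pax3 replicate 3, 10 genes were higher and 6 lower in Pax3 than in control arrays, and 17 were lower in Pax7 than in Pax3 arrays. The share of all genes that passed also moved, to 21.8% between Pax7 and Pax3 arrays, against 16.9% with all arrays. Between Pax3 and control arrays it was 39.4%, against 39.6%. Without Pax3 replicate 1, 3 genes were higher in Pax3 than in control arrays and 4 were lower in Pax7 than in Pax3 arrays. That last count was 3 without Pax3 replicate 2, 3 without Pax7 replicate 1 or 2, 4 without Pax7 replicate 3 and 5 without control replicate 2. In these runs 12.8% to 15.5% of all genes passed between Pax7 and Pax3 arrays. The median SD between arrays over the 43 genes was 0.04 in Pax7, 0.07 in Pax3 and 0.03 in control arrays. Over all genes it was 0.047, 0.077 and 0.055 in the same order.

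**Figure D4:**
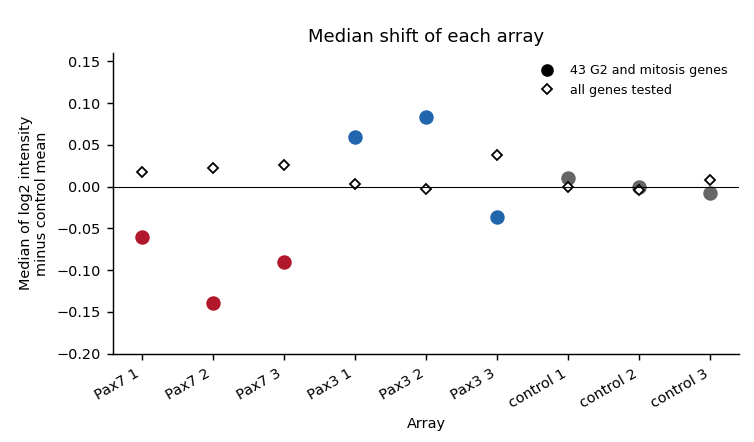
Median over the 43 G2 and mitosis genes of log2 intensity minus the gene's control mean, for each array, beside the same median over all genes (open diamonds). The Pax7 arrays lie between -0.14 and -0.06, 2 Pax3 arrays lie at 0.06 and 0.08, and Pax3 replicate 3 lies at -0.04.

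In all, 23 of the 43 genes passed in at least 1 comparison and 20 in none. Shares of all genes were not computed for these counts or for the overlaps below. In single comparisons 43.2% of all genes passed for Pax7 against control, 39.6% for Pax3 against control and 16.9% for Pax7 against Pax3. Over the 20 genes that passed in none, the intervals reached from -0.36 to 0.18 for Pax7 against control. They reached from -0.20 to 0.36 for Pax3 against control and from -0.38 to 0.16 for Pax7 against Pax3. Both comparisons with control share the same 3 control arrays; 10 genes passed in both of them, 9 in that of Pax7 alone and 2 (Bub1 and Cenpe) in that of Pax3 alone. Of the 9, Spc25, Nuf2, Cenpf and Racgap1 also passed directly between Pax7 and Pax3 arrays. Ccna2, Cdk1, Cenpa, Kif2c and Kif20a did not, so a difference between Pax7 and Pax3 arrays was not shown for those 5.

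Other genes of the same machinery were read from related lists, whose counts stand against the 21.5% lower and 21.6% higher of all genes under Pax7 and the 19.7% lower and 19.8% higher under Pax3. Nothing particular to a list was tested. Of 20 condensin and cohesin genes, which shape and hold the chromosomes, 10 were lower and 0 higher under Pax7 (limma), and 7 were lower and 2 higher under Pax3. Ncapd2, a condensin subunit, fell by 0.73 under Pax7 (adjusted p = 3.93e-07) and by 0.63 under Pax3 (adjusted p = 1.81e-06). Of 20 other checkpoint and anaphase-promoting complex genes, 12 were lower and 2 higher under Pax7, and 10 were lower and 2 higher under Pax3. Cdc26, a small subunit of that complex, fell by 0.71 under Pax7 and by 0.75 under Pax3, while Trip13, which remodels Mad2, rose by 0.40 under Pax7 and by 0.51 under Pax3. These 2 lists had medians of -0.15 and -0.20 for Pax7 and -0.05 and -0.17 for Pax3. Of 32 other kinetochore and centromere genes, 10 were lower and 2 higher under Pax7, and 7 were lower and 5 higher under Pax3. Mis18a, which helps load the centromeric histone, rose by 0.82 under Pax7 and by 0.86 under Pax3, and Cenpp fell by 0.88 and by 0.97. Other spindle, centrosome and cytokinesis genes were mixed, with 10 of 38 lower and 7 higher under Pax7, and 8 lower and 11 higher under Pax3. In that list Psrc1, a spindle protein, rose by 0.69 and by 0.81, and Shcbp1, a midbody protein, fell by 1.22 and by 1.08, for Pax7 and Pax3.

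The 12 G2 entry regulators gave 2 higher and 3 lower under Pax7 and 4 higher and 2 lower under Pax3. Pkmyt1, the membrane-bound kinase that opposes Cdc25, rose by 0.27 under Pax7 (limma adjusted p = 0.0334) and by 0.35 under Pax3 (adjusted p = 0.0089). Cdkn3, a phosphatase of Cdks, rose by 0.40 under Pax7 and by 0.39 under Pax3. Of 37 genes of the preceding S phase, 18 were lower and 4 higher under Pax7, and 17 were lower and 6 higher under Pax3. Among them Mcm4, of the replicative helicase, gave 9.95, 9.92 and 9.95 in Pax7 arrays and 10.07, 10.07 and 9.97 in Pax3 arrays, against 10.82, 10.89 and 10.89 in control arrays. Its differences of -0.92 and -0.83 were larger than that of any of the 43 genes in the lower direction, as were those of Cdc45 at -0.93 and -0.87. In the other direction Chaf1b, a subunit of the histone chaperone CAF-1, rose by 0.92 under Pax7 (adjusted p = 1.24e-07) and by 0.75 under Pax3 (adjusted p = 8.94e-07). Of 12 G1 cyclins and Cdk inhibitors, 6 were higher and 5 lower under Pax7, and 5 were higher and 5 lower under Pax3. Cdkn2a, the p16 and Arf locus, rose by 1.58 under Pax7 (adjusted p = 1.2e-10) and by 1.42 under Pax3 (adjusted p = 4.33e-10). Cdkn1c, the Cdk inhibitor p57, fell by 1.16 and by 1.15.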

How the data were processed

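Total RNA of mouse myoblasts was measured on 9 Affymetrix arrays, 3 per group. The deposited values are log2 intensities made by the authors with RMA and R 2.10.0, per the submitters' processing notes. The build of the array annotation is not given in the sources used here. Arrays have no read depth, so their number limits the precision.

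Of 25668 probe sets, 20777 named 1 gene, 232 several and 4659 none. Per gene the probe set with 1 symbol and the highest mean was kept (19661 genes). limma 3.58.1 (R 4.3.3) was fitted to all 9 arrays without a block, with lmFit and eBayes, and p-values were Benjamini-Hochberg adjusted over all genes at 0.05, two-sided. An exact permutation of 3 against 3 arrays cannot go below p = 0.1. The fit was tested on simulated data. All listed genes with a probe set are named, with array values for the 3 largest changes in each direction. Up to 3 genes are named per related list and comparison. The array values of Spc24 and Mcm4, and the naming of Mybl2 and the NF-Y genes, were chosen after their values were seen. The members and lists were chosen with earlier results of these data known, and the roles, the motifs, the promoters printed and the 1.5-fold bound were chosen after seeing the values. The alternatives were a trended robust prior, a filter on dim genes, the mean of probe sets, centred arrays, a replicate block, fits of 2 groups, array weights, a test against a 1.2-fold change and each array left out. Promoters are from RefSeq, GRCm38.p6.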

Additional observations from a re-analysis of the deposited data

Results flagged for a closer look

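Pax7 and Pax3 arrays, each set against the same control arrays, gave unlike differences for 8 of the 43 genes. The test was limma on Pax7 against Pax3 arrays (adjusted over all genes). In each difference from control the factor and the origin of the cells cannot be told apart. The Pax7 difference minus the Pax3 difference was -0.40 for Spc25 (-0.39 and 0.02 against control) and -0.25 for Nuf2 (-0.20 and 0.05). It was -0.25 for Hmmr (-0.07 and 0.18) and -0.21 for Cenpf (-0.18 and 0.03). It was -0.20 for Racgap1 (-0.15 and 0.05), -0.18 for Plk4 (-0.12 and 0.07), -0.18 for Nek2 (-0.36 and -0.18) and -0.16 for Kif11 (-0.40 and -0.23). Spc25 and Nuf2 kept the call with every array left out in turn, and the other 6 lost it in at least 1 such run. Groups of 3 arrays are too small to look for single outlying arrays by gene.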

How the results depend on the processing

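No called gene and no median of the 43 genes reversed direction in any alternative run. The median of all genes, near 0, did change sign: for Pax3 against control, 0.02 became -0.01 with arrays centred, -0.01 without the dimmer 50% of genes and -0.004 without Pax3 replicate 3; for Pax7 against control, 0.03 became -0.015 without the dimmer 50%; for Pax7 against Pax3, 0.01 became -0.012 without the dimmer 50% and -1e-04 without Pax3 replicate 1. For Pax3 against control, the 5 higher genes became 8 with an intensity trend and a robust prior, 9 without the dimmer 50% of genes, 11 with array weights (which gave Pax3 replicate 3 the lowest weight, 0.27) and 1 against a 1.2-fold change, and 3 to 10 with 1 array left out; the 7 lower genes became 0 against 1.2-fold (1 at an unadjusted p under 0.05). For Pax7 against control, the 3 higher and 16 lower genes became 1 and 2 against 1.2-fold. For Pax7 against Pax3, the 8 lower genes became 5 with each array centred on its median, 3 with the 2 groups fitted alone, 20 with array weights, 0 against 1.2-fold (1 at an unadjusted p under 0.05), and 3 to 17 with 1 array left out. The share of all genes moved as well. Between Pax7 and Pax3 arrays it was 16.8% with arrays centred, 14.5% with the 2 groups alone, 27.2% with array weights and 12.8% to 21.8% with 1 array left out. Between Pax3 and control arrays it was 40.5% with the trended prior, 66.4% without the dimmer 50%, 43.6% with weights and 35.1% to 39.4% with 1 array left out. Calls held in every run with 1 array left out for 9 of 12 genes (Pax3 against control), 13 of 19 (Pax7 against control) and 2 of 8 (Pax7 against Pax3). The 1.2-fold test asks for a larger change, and leaving out arrays, groups or dim genes changes what is fitted; for the trended prior, the centring and the weights the cause was not tested. Centring moved the median of the 43 genes to 0.00 for Pax3, -0.10 for Pax7 and -0.07 between them. With the replicate number as a block, the counts were 6 higher and 7 lower for Pax3, 3 and 16 for Pax7, and 0 and 7 between them. The numbers were not taken as pairs: same-numbered arrays correlated at -0.03 to 0.22 in their deviations from group means, and not every array correlated best with its own number.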

Other observations

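Factors known to act on such promoters were read as a related list. Of 21 MuvB, B-Myb, pocket protein and NF-Y factors, 10 were lower and 5 higher under Pax7, and 8 were lower and 4 higher under Pax3 (limma, adjusted over all genes). Of all genes 21.5% were lower and 21.6% higher under Pax7, and 19.7% and 19.8% under Pax3. E2f8, a repressor of the E2F family, gave 8.69, 8.70 and 8.54 in Pax7 arrays and 8.93, 8.93 and 8.86 in Pax3 arrays, against 10.23, 10.27 and 10.22 in control arrays. It fell by 1.60 under Pax7 (adjusted p = 5.58e-10) and by 1.34 under Pax3 (adjusted p = 3.82e-09). E2f2, an activator of the family, gave 7.01, 6.99 and 7.02 in Pax7 arrays and 6.58, 6.57 and 6.47 in Pax3 arrays, against 7.75, 7.94 and 7.88 in control arrays. It fell by 0.85 under Pax7 and by 1.32 under Pax3, and was higher in Pax7 than in Pax3 arrays by 0.47 (adjusted p = 0.000125). Between Pax7 and Pax3 arrays 4 of the 21 were higher and 5 lower, against 8.33% and 8.54% of all genes. The largest of these differences was that of Mybl1, which encodes A-Myb and was lower by 0.54 on the log2 scale (adjusted p = 0.00251), while E2f3 was higher by 0.43 (adjusted p = 0.000776). E2f5 rose by 0.77 and by 0.36, and Tfdp2, a dimer partner of E2F, by 0.32 and by 0.69, for Pax7 and Pax3. Mybl2, which encodes B-Myb, fell by 0.30 under Pax3 (limma adjusted p = 0.000638) and differed by 0.07 under Pax7 (adjusted p = 0.29). It was higher in Pax7 than in Pax3 arrays by 0.38 (adjusted p = 0.000436). Of the NF-Y genes, Nfya rose by 0.20 and by 0.28 and Nfyc fell by 0.58 and by 0.59, for Pax7 and Pax3. Nfyb passed in neither comparison with control.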
